A study of Mus musculus with 4 samples.

Results

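The MHC class II genes described here are 7 genes of antigen presentation, H2-Aa, H2-Ab1, H2-Eb1, H2-DMa, H2-DMb1, Cd74 and Ciita, each found by its symbol among the 54532 genes of the count table and read in 4 RNA-seq libraries of mouse peritoneal macrophages. The study asked how tumor signals and the aryl hydrocarbon receptor (AHR) shape macrophages, and here it kept cells in normal medium (RPMI) or in medium with 30% 4T1-conditioned medium (4T1-CM), which carries what the mouse mammary carcinoma line 4T1 secretes. In each medium, 1 culture received the vehicle DMSO and 1 received 10 µM CH223191, an AHR antagonist. The libraries are called RPMI-DMSO, RPMI-CH, CM-DMSO and CM-CH, and values listed without names follow this order. All 4 cultures came from peritoneal fluid of wild-type animals. The methods state for peritoneal macrophages in general that BALB/c mice received thioglycollate broth, which draws inflammatory cells into the peritoneum. They also state that the wild-type mice of the study were young adults and that macrophages met DMSO or the antagonist before the conditioned medium. How many mice were pooled and how long these 4 cultures were treated are not given in the sources used here. Each condition had 1 library, so the differences cannot be set against a replicate spread, and the intervals below cover counting error between libraries only.

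MHC class II molecules carry peptides from engulfed proteins to the cell surface, where CD4+ T cells read them. An alpha and a beta chain pair in the endoplasmic reticulum around the invariant chain, and in endosomes the DM molecule exchanges the last fragment of that chain for a peptide. The mouse has a pair of classical molecules, I-A, made of the products of H2-Aa and H2-Ab1, and I-E, whose beta chain comes from H2-Eb1. CIITA, the class II transactivator, binds no DNA itself and is recruited to the promoters by RFX, CREB and NF-Y. In macrophages it is induced above all by interferon-gamma.

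The promoters of H2-Aa and H2-Eb1 are shown because they hold the paired boxes through which the transactivator acts. They are taken from RefSeq (GRCm38.p6), which represents C57BL/6 and not BALB/c. Each stretch is the 150 bases that end at the first annotated transcript start, read 5′ to 3′ along the gene, at chr17:34287824-34287973 on the minus strand for H2-Aa and chr17:34305717-34305866 on the plus strand for H2-Eb1. Capitals mark CTNGNAAC, the core of the X box bound by RFX, and GATTGG, the Y box bound by NF-Y.
H2-Aa: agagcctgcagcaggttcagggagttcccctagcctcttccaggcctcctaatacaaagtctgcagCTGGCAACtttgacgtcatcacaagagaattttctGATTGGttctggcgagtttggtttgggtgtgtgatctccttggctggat
H2-Eb1: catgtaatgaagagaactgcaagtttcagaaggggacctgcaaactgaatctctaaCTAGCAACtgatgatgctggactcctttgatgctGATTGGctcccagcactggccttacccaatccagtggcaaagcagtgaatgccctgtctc

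In H2-Aa 27 bases separate the X from the Y letters, in H2-Eb1 26 and in H2-DMb1 27. H2-Ob, the beta chain of the DM inhibitor DO, has the same arrangement with 24 bases, while the windows of H2-Oa, H2-DMb2 and H2-Eb2 had no such pair. Searched on both strands of 300 bases per start, the X letters were in 13.2% of 32841 promoters and the Y letters in 16.1%, and X before Y on the same strand with at most 40 bases between them was in 0.158%. The letters were chosen with these promoters in view, and a match is a description. Of the 7 genes, 4 had an entry, and the 2 starts listed for H2-DMa had no such pair. H2-Ab1, Cd74 and Ciita had no entry.

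The 7 genes lie on 3 chromosomes in the coordinates of the deposited table. The build is not given in the sources used here, but start and end equalled those of GENCODE M21 on GRCm38 for 4097 of 4616 genes of chromosomes 16, 17 and 18. On chromosome 17, H2-DMa spans 34135182 to 34139101, H2-DMb1 34153072 to 34160230, H2-Ab1 34263209 to 34269418, H2-Aa 34282744 to 34287827 and H2-Eb1 34305877 to 34316199. H2-Aa is on the minus strand and the others of this chromosome are on the plus strand. Ciita spans 10480059 to 10528418 on the plus strand of chromosome 16, and Cd74 lies on chromosome 18.

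The libraries held 15535405 to 17557127 reads on 17395 to 18665 genes. Libraries were scaled with the TMM method, which gives CPM (a gene's reads as a part of 1e6 scaled reads), and a gene was compared where any library had 10 reads or more, which left 13715 genes. This minimum was met by 6 of the 7 genes, and these 6 met it in every library. The exception was H2-DMb1, the beta chain of DM, with 2 reads in RPMI-DMSO, 3 in RPMI-CH, 4 in CM-DMSO and 5 in CM-CH, and no fold is given for it. Of its 50-base words, 22.6% also occur in transcripts of H2-DMb2, a near copy beside it, so reads can move between both.

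The genes for the invariant chain and for DM alpha were well expressed, and the classical chains and the transactivator stood lower. Per length, in RPKM (CPM divided by the gene's length in kilobases), Cd74 was highest of the 7 genes in every library, with 22.7 in RPMI-DMSO, 15.3 in RPMI-CH, 21.6 in CM-DMSO and 17.6 in CM-CH. It stood at percentiles 78.8 to 85.5 of the 13715 genes by RPKM. H2-DMa, the alpha chain of DM, followed with 9.99 to 13.7 RPKM. H2-Ab1 had 3.07 to 9.63 RPKM, H2-Aa 2.35 to 3.54 and H2-Eb1 1.65 to 3.39, so the ranges of the last 2 overlapped. In CM-DMSO, H2-Ab1 at 9.63 came close to H2-DMa at 9.99. By percentile H2-Ab1 stood between 43.9 and 47.2 in normal medium, against 63.4 to 70.1 in 4T1-CM, and H2-Aa and H2-Eb1 stood at 32.7 to 46.2 in all libraries. Ciita, with 0.0658 to 0.0923 RPKM, and H2-DMb1, with 0.0845 to 0.207 RPKM, came last and also overlapped, with Ciita at percentiles 2.46 to 4.99. Ifng, which encodes interferon-gamma, had 0 reads in each library, which allows up to 0.171 to 0.189 CPM.

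**Figure D1:**
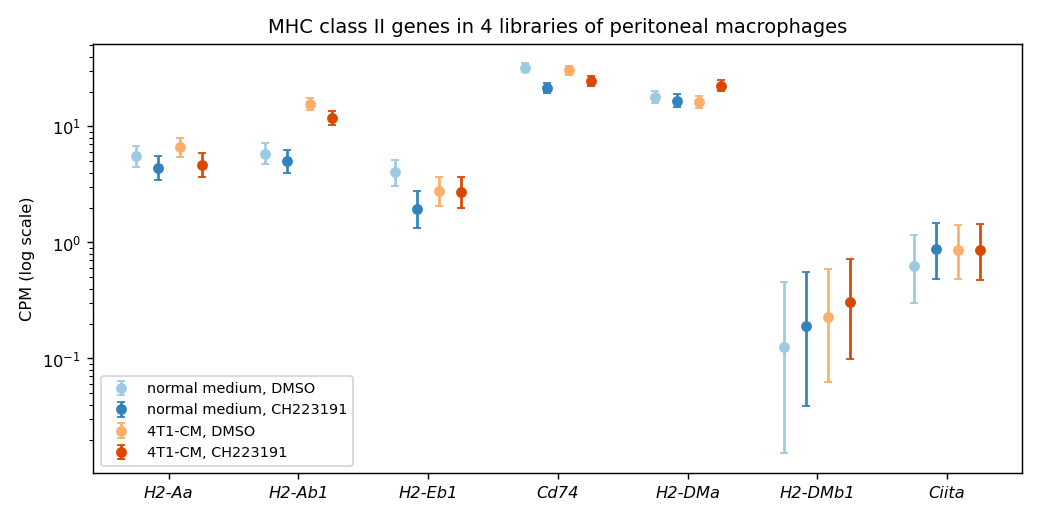
Levels of the 7 class II genes in CPM on a log scale, with a point for each of the 4 libraries and bars for the exact 95% Poisson interval of its reads. H2-Ab1 stands at 15.8 and 11.9 CPM in 4T1-CM against 5.83 and 5.03 CPM in normal medium, and its intervals in 4T1-CM lie clear of both in normal medium.

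With 4T1-CM, the beta chain of I-A was higher and its alpha chain was not clearly so. H2-Ab1 had 93 reads in RPMI-DMSO, 80 in RPMI-CH, 276 in CM-DMSO and 193 in CM-CH. Both libraries with 4T1-CM lay above both with normal medium. Its fold between media was 2.69 with DMSO (95% interval from 2.13 to 3.46) and 2.35 with the antagonist (from 1.81 to 3.10). H2-Aa had 88, 70, 116 and 76 reads, and its libraries overlapped between the media. The fold of H2-Aa was 1.20 (0.902 to 1.60) with DMSO and 1.06 (0.758 to 1.49) with CH223191.

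The ratio between both chains of I-A differed between the media. Per length, H2-Ab1 stood to H2-Aa at 1.21 (0.894 to 1.64) in normal medium with DMSO and 1.31 (0.937 to 1.83) with CH223191. In 4T1-CM the ratio was 2.72 (2.18 to 3.41) with DMSO and 2.91 (2.22 to 3.84) with CH223191. The intervals in 4T1-CM did not overlap those in normal medium. This ratio is taken within a library and does not depend on the scaling between libraries. None of the 50-base words of H2-Ab1 and 0.514% of those of H2-Aa occur in transcripts of another gene. I-A alleles differ between BALB/c and C57BL/6, and how many reads of either chain were lost against a reference sequence was not tested.

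**Figure D2:**
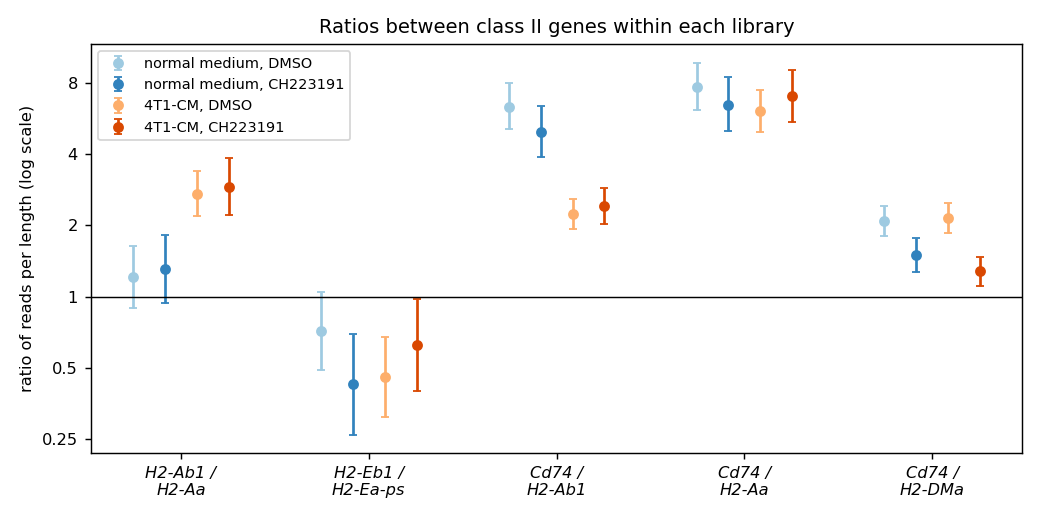
Ratios of reads per length between pairs of class II genes within each of the 4 libraries, on a log scale, with exact 95% intervals from the split of the reads. H2-Ab1 over H2-Aa is 1.21 and 1.31 in normal medium and 2.72 and 2.91 in 4T1-CM, and Cd74 over H2-Ab1 is 6.37 and 4.96 in normal medium and 2.24 and 2.42 in 4T1-CM.

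Of the 6 genes compared, H2-Ab1 was the only gene at least 2-fold higher with 4T1-CM, in both comparisons, and 0 were at least 2-fold lower in either. Among all 13715 genes, 12.2% were at least 2-fold higher with DMSO, 12% with CH223191 and 8.18% in both, and 6.12%, 7.86% and 3.38% were at least 2-fold lower. If every library had to reach 10 reads, which all 6 genes did, 11765 genes were left and 4.82% of them were at least 2-fold higher in both. The median log2 ratio of the 6 genes was 0.09 with DMSO and 0.32 with CH223191, against 0.01 and 0.02 over all genes. An additive quasi-likelihood fit of edgeR over the 4 libraries had medium and inhibitor as terms and left 1 residual degree of freedom per gene. It takes the difference between both responses as the spread and draws it toward the spread of all genes. Its p values thus rest largely on other genes and hold no variation between replicate cultures. In this fit H2-Ab1 was higher with 4T1-CM by 1.34 on the log2 scale (adjusted p = 0.000384), where 32.6% of all genes passed an adjusted p of 0.05 and 16.4% did so in this direction. The adjusted p in this edgeR fit was 0.568 for H2-Aa, 0.896 for H2-Eb1, 0.532 for H2-DMa, 0.779 for Cd74 and 0.813 for Ciita.

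Cd74, which encodes the invariant chain that escorts new class II dimers, had 510 reads in RPMI-DMSO, 342 in RPMI-CH, 532 in CM-DMSO and 402 in CM-CH. Both libraries with DMSO lay above both with CH223191. Between the media, its fold was 0.950 (0.840 to 1.07) with DMSO and 1.15 (0.994 to 1.33) with CH223191. Cd74 stood to H2-Ab1 per length at 6.37 (5.10 to 8.03) and 4.96 (3.88 to 6.41) in normal medium with DMSO and CH223191, and at 2.24 (1.93 to 2.60) and 2.42 (2.03 to 2.89) in 4T1-CM. To H2-Aa it stood at 6.10 to 7.70 in the 4 libraries, with overlapping intervals.

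H2-Eb1, the beta chain of I-E, had 64 reads in RPMI-DMSO, 31 in RPMI-CH, 49 in CM-DMSO and 44 in CM-CH. The highest and the lowest library were those in normal medium, so the media overlapped. Its fold with 4T1-CM was 0.699 (0.471 to 1.03) with DMSO and 1.38 (0.858 to 2.28) with CH223191. The partner of H2-Eb1 is listed as the pseudogene H2-Ea-ps, since C57BL/6 lacks a working I-E alpha gene while BALB/c carries an intact copy. H2-Ea-ps had 52, 42, 62 and 41 reads. Per length, H2-Eb1 stood to H2-Ea-ps at 0.713 (0.487 to 1.05), 0.428 (0.260 to 0.697), 0.458 (0.308 to 0.677) and 0.622 (0.397 to 0.976), with overlapping intervals. Unlike the ratio for I-A, this ratio did not set the media apart.

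H2-DMa had 285 reads in RPMI-DMSO, 266 in RPMI-CH, 287 in CM-DMSO and 366 in CM-CH. The last library was the highest and the other 3 lay close together. Of its 50-base words, 8.43% also lie in transcripts of Brd2 on the opposite strand in GENCODE M21, and whether counting used strand is not stated. With 4T1-CM its fold was 0.917 (0.776 to 1.08) with DMSO and 1.35 (1.15 to 1.58) with CH223191. Ciita had 10, 14, 15 and 14 reads, and no difference was detectable at this depth, since the intervals of its 4 folds together spanned 0.433 to 3.53. Exons of Ciita overlap those of Dexi on the opposite strand over 329 bases in the GENCODE M21 annotation. Dexi had 98 to 206 reads.

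With CH223191, 4 of the 6 genes had lower CPM than with DMSO in both media, namely H2-Aa, H2-Ab1, H2-Eb1 and Cd74, and 0 were at least 2-fold changed in both. Over all genes, 25.8% were lower in both media, 0.481% at least 2-fold lower in both and 0.678% at least 2-fold higher in both. Cd74 was the only gene of the 6 whose interval lay below 1 in both media, with a fold of 0.673 (0.584 to 0.772) in RPMI and 0.815 (0.714 to 0.929) with 4T1-CM, a rule that 3.8% of all genes met. H2-Aa had folds of 0.799 (0.574 to 1.10) and 0.708 (0.522 to 0.951), and H2-Ab1 of 0.863 (0.631 to 1.18) and 0.754 (0.624 to 0.909), in the same order. H2-Eb1 was at least 2-fold lower in normal medium, at 0.490 (0.306 to 0.757), where 3.31% of all genes were so, and stood at 0.969 (0.629 to 1.48) in 4T1-CM, where 2.62% of all genes were at least 2-fold lower. With a prior count of 5 in place of 0.5, H2-Eb1 was no longer at least 2-fold lower. For H2-DMa the fold was 0.936 (0.789 to 1.11) in RPMI, against 1.37 (1.17 to 1.61) with 4T1-CM. No gene of the 6 was at least 2-fold higher in either medium, where 4.84% and 2.8% of all genes were. The 6 genes had a median log2 ratio of -0.27 (normal medium) and -0.17 (4T1-CM), against 0.00345 and 0.0043 over all genes. In the additive edgeR fit 0.0802% of all genes passed for CH223191, and 0 of the 6 did, with an adjusted p of 0.714 for Cd74. Cd74 was also the only gene of the 6 with an unadjusted p under 0.05 in this edgeR fit, at 0.0123, which 6.42% of all genes had.

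**Figure D3:**
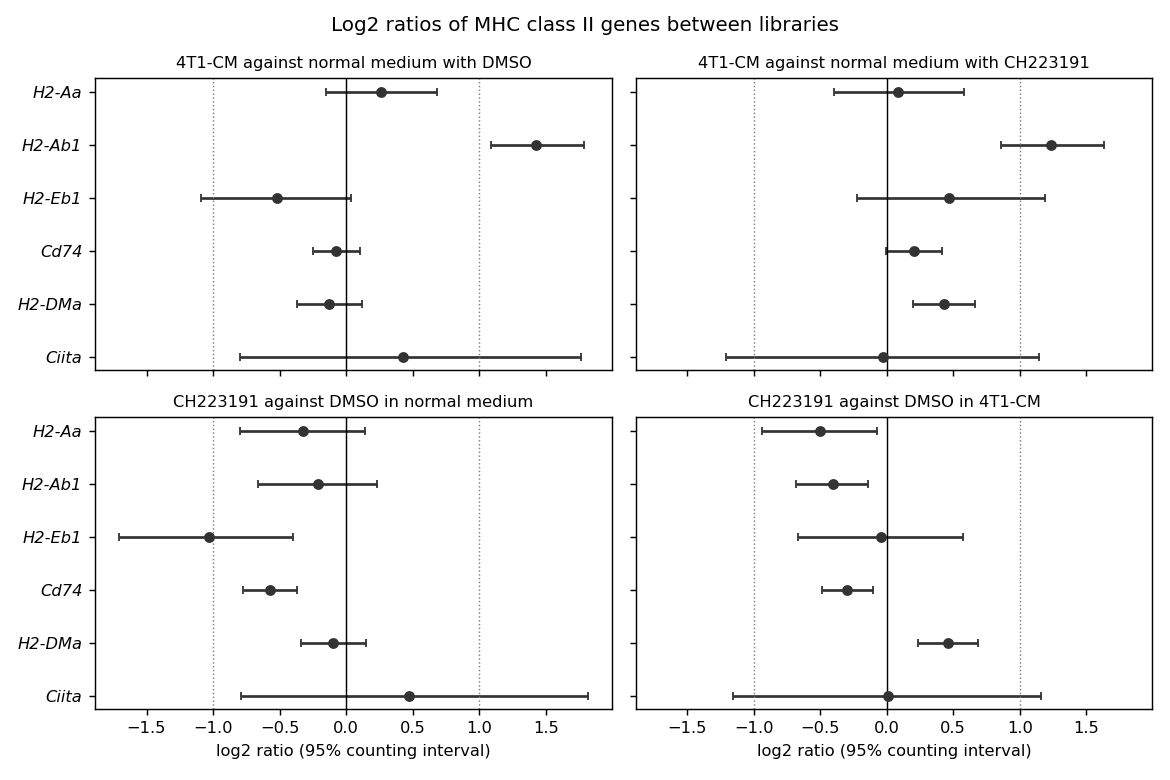
Log2 ratios of the 6 class II genes with enough reads in the 4 comparisons between libraries, with exact 95% counting intervals and dotted lines at 2-fold. H2-Ab1 lies at 1.43 and 1.23 with 4T1-CM, and Cd74 at -0.57 and -0.30 with CH223191.

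The response to 4T1-CM with CH223191 minus that with DMSO was 0.98 on the log2 scale for H2-Eb1 (0.14 to 1.83), 0.55 for H2-DMa (0.23 to 0.88) and 0.28 for Cd74 (0.00454 to 0.55). For H2-Ab1 it was -0.19 (-0.70 to 0.31), for H2-Aa -0.17 (-0.79 to 0.44) and for Ciita -0.46 (-2.00 to 1.09). Of the 6 intervals, 3 left out 0, as did those of 34.8% of all genes. They come from the reads of the 4 libraries and do not hold the variation between cultures.

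The other class II genes were sparse. H2-Oa, the alpha chain of DO, had 0 reads in RPMI-DMSO and RPMI-CH, 9 in CM-DMSO and 8 in CM-CH. As it stayed under 10 reads in every library, no fold is given. H2-Ob had 0, 0, 3 and 4 reads. H2-DMb2 had 10, 29, 39 and 44 reads, with the library of normal medium with DMSO far below the others, and a fold with 4T1-CM of 3.43 (1.74 to 7.98) with DMSO and 1.48 (0.909 to 2.46) with CH223191. Its adjusted p for 4T1-CM in the additive edgeR fit was 0.068. H2-Eb2 had 0 reads in each library.

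The factors that bring CIITA to these promoters were all measured, and 0 of the 7 differed at least 2-fold in any comparison. Over all genes, 18.3% differed at least 2-fold between the media with DMSO and 19.9% with CH223191. Between CH223191 and DMSO, 8.15% did so in normal medium and 5.42% in 4T1-CM. Rfx5, the DNA-binding subunit of RFX, had 90 reads in RPMI-DMSO, 119 in RPMI-CH, 176 in CM-DMSO and 161 in CM-CH. Its fold with 4T1-CM was 1.78 (1.37 to 2.32) with DMSO and 1.32 (1.04 to 1.69) with CH223191. The RFX subunits Rfxap and Rfxank had folds with 4T1-CM of 0.851 to 1.03. Nfya, Nfyb and Nfyc, the subunits of NF-Y, had lower CPM with 4T1-CM in both comparisons. Their folds were 0.790 and 0.682 for Nfya, 0.718 and 0.640 for Nfyb and 0.816 and 0.761 for Nfyc. Creb1 had a fold of 0.920 with DMSO and 1.46 with CH223191. Rfx5 thus differed in direction from the subunits of NF-Y, while Rfxap, Rfxank and Creb1 were not higher in both comparisons. The adjusted p for 4T1-CM in the additive edgeR fit was 0.0377 for Rfx5, 0.0219 for Nfya, 0.0294 for Nfyb and 0.11 for Nfyc.

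The wider list of 34 class II pathway genes had 31 with enough reads. Between the media, 2 of these were at least 2-fold higher in the presence of DMSO and 1 in that of the antagonist, and 0 were so in both or at least 2-fold lower in either. Over all genes, 12.2% and 12% were at least 2-fold higher, 8.18% were so in both, and 6.12% and 7.86% were at least 2-fold lower. The median log2 ratio of the 31 genes was -0.02 and 0.04. In the additive edgeR fit 8 of the 31 were higher with 4T1-CM (among them Rfx5, Ifngr2, Jak2, Ctsl, Sppl2a, March1 and Mif) and 5 lower (Nfya, Nfyb, Usf1, Ctsd and Ifi30), which is read against 16.4% and 16.2% of all genes. For CH223191, 0 of the 31 passed. Genes of this list with values below were named after their values were seen. Jak2, a kinase of the interferon-gamma receptor, had 638 and 512 reads in normal medium and 1384 and 1236 in 4T1-CM, with folds of 1.97 (1.80 to 2.17) with DMSO and 2.36 (2.13 to 2.62) with CH223191. Irf1, which drives Ciita, had folds of 1.01 (0.861 to 1.18) and 0.973 (0.837 to 1.13). Mif, whose product binds CD74 at the surface, had folds of 2.87 (2.72 to 3.03) and 1.97 (1.87 to 2.07).

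**Figure D4:**
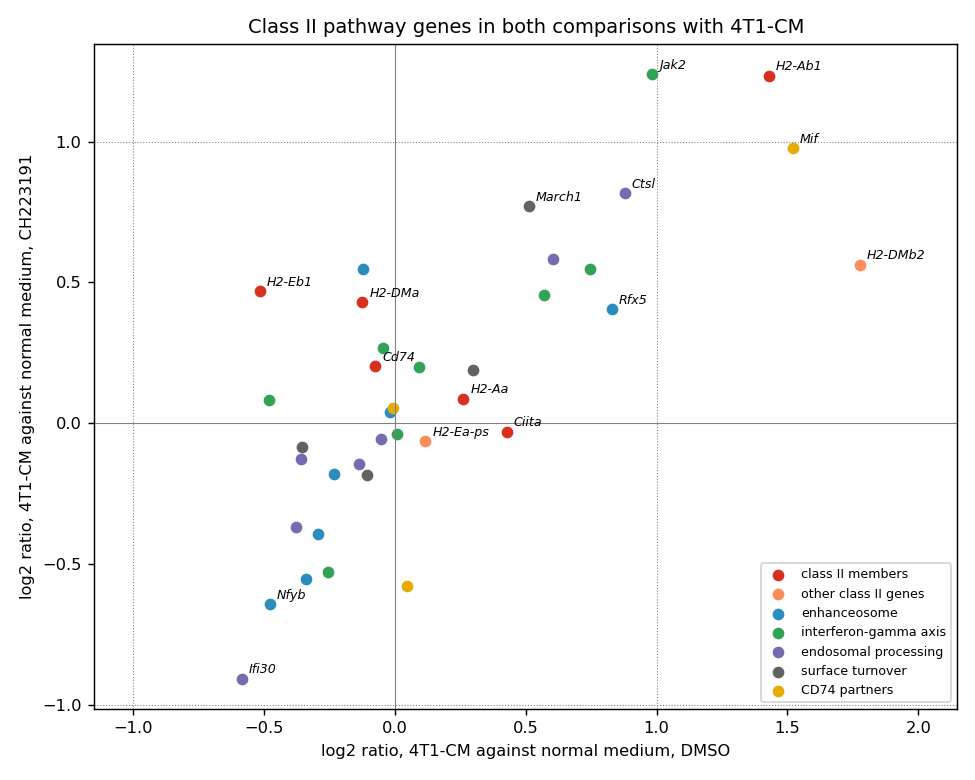
Log2 ratios of 4T1-CM against normal medium with DMSO (x axis) and with CH223191 (y axis) for the 6 class II genes and 31 wider pathway genes, colored by list, with dotted lines at 2-fold. H2-Ab1 is the gene past 2-fold on both axes, at 1.43 and 1.23, and Jak2 and Mif lie just short of it on an axis each, at 0.98 and 0.98.

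The endosomal processing genes ranged from Sppl2a, which cleaves the remnant of CD74 in the membrane, at 13.7 to 22.5 RPKM, to the cathepsin Ctsd at 5220 to 7462 RPKM. The cathepsin Ctss, which trims the invariant chain, had 3408 to 3715 RPKM, and its fold with 4T1-CM was 0.965 and 0.961. Ctsl, another cathepsin, had folds of 1.84 and 1.76, and Ifi30, the lysosomal thiol reductase GILT, had 0.667 and 0.533. The ubiquitin ligase March1, which removes class II molecules from the surface, had folds of 1.42 and 1.71, with an adjusted p of 0.00352 in the additive edgeR fit. Cd83, which opposes March1, had 1.23 and 1.14.

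Markers of other cells that carry class II molecules were also read, and some of them moved with the media. The summed level of 7 dendritic cell markers was between 1.13 and 2.32 CPM in RPMI and between 3.20 and 3.77 CPM with 4T1-CM, with Siglech at 0 reads. Within that list, Ccr7 had 0 and 1 reads in normal medium and 24 and 13 in 4T1-CM, and Clec9a had 6, 0, 23 and 13. The other members of the list did not share this, as Cd209a had 8, 2, 0 and 0 reads, Zbtb46 20, 14, 16 and 22, Xcr1 3, 1, 3 and 2, and Flt3 at most 2. The summed level of 6 B cell markers was 20.2 and 34.3 CPM in normal medium and 7.94 and 5.29 in 4T1-CM, nearly all of it Ighm, with Pax5 at most 1 read. Ighm was lower with 4T1-CM, the opposite of H2-Ab1, with 317, 540, 128 and 67 reads. T and NK cell markers had 0 reads for 5 of 5. The 7 macrophage markers were present, at 14028 and 18261 CPM in normal medium and 37499 and 40034 CPM in 4T1-CM, most of it Lyz2. The sums of other lists were also higher with 4T1-CM. Fibroblast markers, 5 genes, summed to 60.8, 27.3, 139 and 119 CPM. Among them Col1a1, Col1a2 and Col3a1 had both libraries with 4T1-CM above both with normal medium. Pdgfra and Lum did not, at 91, 49, 83 and 70 reads and at 3, 0, 0 and 0 reads. The 6 markers of small or monocyte-derived macrophages summed to 923, 1099, 2267 and 2986 CPM, nearly all of it Fn1, with Ly6c2 at 0 reads. The others of this list did not follow Fn1. Ccr2 had 32, 22, 27 and 26 reads, Irf4 108, 78, 96 and 55, Retnla 3, 3, 5 and 2, and Cd226 0, 0, 3 and 0. The 5 markers of large peritoneal macrophages summed to 7.34, 7.04, 16.9 and 17.7 CPM. In this list Prg4 alone had both libraries with 4T1-CM above both with normal medium, at 5, 8, 213 and 208 reads. Gata6 had 41, 20, 26 and 24 reads, Icam2 43, 69, 45 and 36, Selp 25, 15, 11 and 19, and Timd4 at most 3. The 5 markers of epithelial tumor cells summed to 0.439, 0.692, 0.914 and 1.35 CPM, in 4T1-CM nearly all of it Cdh1. The part of these shifts in the values of H2-Ab1 and of the other class II genes was not tested, and in bulk RNA fewer cells of a type and less RNA per cell cannot be told apart.

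Over the 4 libraries, the genes with a pattern most like the mean of H2-Aa, H2-Ab1, H2-Eb1 and Cd74 were Lin9, Vegfb, Slc25a40, Pnp and Trappc2. Likeness is the Euclidean distance between centred log2 CPM, among 8322 genes that averaged 10 CPM or more, and was 0.0795 to 0.101 for these 5. All of them were lowest in normal medium with CH223191 and highest in 4T1-CM with DMSO, as was the mean of the 4 class II genes that they were chosen to match. Cd74 and H2-Eb1 themselves were highest in normal medium with DMSO, at 32.0 and 4.01 CPM, against 30.4 and 2.80 CPM in 4T1-CM with DMSO. With 4 points, 1 per library, the likeness is a description.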

How the data were processed

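RNA from 4 cultures of peritoneal macrophages, 1 library per condition, was sequenced by the authors, who deposited the raw counts of reads for each gene. The submitters' processing notes name HISAT2 2.0.5 and DESeq2. The methods name featureCounts for the alveolar macrophage libraries of the study. For these 4 libraries the counter, the build and whether counting used strand are not given in the sources used here. Genes were matched by symbol, and the members and lists were chosen with earlier results of these data known. Libraries held 15535405 to 17557127 reads and were scaled by TMM (edgeR 4.0.16 in R 4.3.3), with factors of 0.986 to 1.026. Genes that reached 10 reads in any library were compared, with a prior count of 0.5 on the log2 scale. Folds and chain ratios carry exact Clopper-Pearson 95% intervals and levels exact Poisson intervals, and differences between responses a normal interval from the reads, all of which cover counting error only. Pairs of libraries were not tested, as conditions had no replicates. An additive quasi-likelihood model of edgeR with Benjamini-Hochberg adjustment over all genes was fitted to the 4 libraries. Before this, the folds and their counting intervals were tested on simulated Poisson counts without variation between cultures. The scaling and the additive model were not tested in this way. Named were the 7 genes, the promoter-binding factors, the other class II genes, wider pathway genes past 2-fold in 1 direction in both comparisons of a pair (0 were), and the 5 genes with the nearest pattern. Other pathway genes given with values were chosen after their values were seen. Alternatives were total-count, upper-quartile and DESeq2 1.42.0 scaling, a filter of 10 reads in every library or none, protein-coding genes alone, a prior count of 5 and the additive model. Values of some single genes of the lists are not reported here.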

Additional observations from a re-analysis of the deposited data

Results flagged for a closer look

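For 4 of the class II genes the sign of a log2 ratio differed between both levels of the other factor, and with 1 library per condition these differences were not tested. Over all 13715 genes, 39.3% were above 0 and 37.8% below 0 in both comparisons between the media. For CH223191 against DMSO, 28.2% were above 0 and 25.8% below 0 in both. The remaining genes differed in sign. H2-Eb1 had a log2 ratio of 4T1-CM against normal medium of -0.52 with DMSO and 0.47 with CH223191. H2-DMa had -0.12 with DMSO and 0.43 with CH223191, and for CH223191 against DMSO its values were -0.10 (normal medium) and 0.46 (4T1-CM). Cd74 had -0.074 with DMSO and 0.20 with CH223191 between the media. Ciita, at 10 to 15 reads, had 0.43 with DMSO and -0.031 with CH223191 between the media.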

How the results depend on the processing

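A change of direction was looked for only where a log2 ratio was at least 1 either way. Near 0 a sign could change, as for Ciita with CH223191 against DMSO in 4T1-CM, at 0.0116 and, with DESeq2 scaling, -0.00037. Scaling, filters and the additive model left 137 summary values and 187 values of single genes within 1.5 times or the counting interval. The exceptions were 3 counts. Without a filter on reads, 4 wider pathway genes in place of 2 were at least 2-fold higher with 4T1-CM and DMSO, and 3 in place of 1 with 4T1-CM and CH223191. With a prior count of 5, 0 class II genes in place of 1 were at least 2-fold lower with CH223191 in normal medium, the gene being H2-Eb1. Changing the prior count to 5 moved a log2 ratio by at most 0.15 and total-count scaling by at most 0.06. All 5 genes of nearest pattern were shared with total-count scaling. Depth limited Ciita and H2-DMb1, at 2 to 15 reads. No paired analysis was possible because each condition had 1 library and the labels give no replicate numbers.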
